A study of Mus musculus with 12 samples.

Results

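The genes described here are 10 that are classed as actin and contractile genes under serum response factor: Srf, Acta2, Actg2, Tagln, Cnn1, Cnn2, Tpm1, Tpm2, Myl9 and Vcl. They were taken by name from a count table of 55421 genes, in which each name matched 1 row, and 7 of the 10 were among the 18108 genes with enough counts to be tested. Polyadenylated RNA came from MOC2, a mouse oral squamous cell carcinoma line, in 12 cultures that form 4 groups of 3. A derivative called MOC2-25 is labelled EV-proficient, and one called MOC2-27 is labelled EV-deficient because its release of extracellular vesicles was blocked genetically by a change the labels do not name. Each was sampled as a DMSO control or after 48 h in 600 nM paclitaxel, a drug that stabilises microtubules and was used to make the cells senescent. All groups share a serum-containing medium with hydrocortisone, cholera toxin, transferrin, insulin, tri-iodothyronine and EGF. Each EV label is carried by 1 derivative, so that the label and any other difference between the derivatives cannot be told apart. Nothing says whether the cultures of a group were independent experiments, and the p-values then measure only the spread between these libraries.

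Serum response factor (SRF) is a transcription factor that binds a short DNA element called the CArG box, and it works with partner proteins of either of 2 families. The myocardin-related factors MRTF-A and MRTF-B are held by actin monomers and reach the nucleus when actin is built into filaments, and they switch on genes of the cytoskeleton. The ternary complex factors, among them ELK1, ELK3 and ELK4, answer to ERK signalling and switch on immediate early genes. Smooth muscle and myofibroblasts are known for the highest levels of the contractile targets, whereas calponin 2, the tropomyosins and vinculin are also used by epithelial cells.

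Library totals ran from 23263472 to 62955757 counts, the lowest being EV-proficient paclitaxel replicate 3. Of 6 squamous epithelial markers, Epcam, Cdh1, Krt14 and Krt6a were tested, and Krt5 and Trp63 stayed at no more than 11 counts in any library, so the labelled cell type was met by part of its markers. The summed level of the 6 was 1584 ± 62 CPM in EV-proficient DMSO, 2297 ± 82 in EV-deficient DMSO, 1628 ± 34 in EV-proficient paclitaxel and 1402 ± 83 in EV-deficient paclitaxel (SD, 3 libraries a group; CPM are counts scaled to library size by TMM). The sum covers markers that moved apart. Krt6a fell 126-fold with the drug in EV-deficient cells, from 318 ± 18 to 2.48 ± 0.67 CPM, and 2.72-fold in EV-proficient cells, from 42.0 ± 2.3 to 15.5 ± 0.7 CPM (SD, n = 3 each). Krt14 fell 8.51-fold with the drug in the EV-deficient libraries, from 681.5 to 80.0 CPM, and did not pass in the EV-proficient libraries (191.2 and 190.9 CPM, edgeR adjusted p 0.988). Epcam rose 2-fold in the EV-proficient and 1.22-fold in the EV-deficient libraries, and Cdh1 fell 1.56-fold and 1.09-fold (edgeR, adjusted p at most 0.0378 for these values). The summed level of 7 smooth muscle and pericyte markers was between 2.37 and 5.99 CPM in the DMSO and between 9.45 and 15.75 CPM in the paclitaxel libraries, led by Notch3 and, in EV-deficient paclitaxel, also by Rgs5, while Des was at no more than 22 counts in any library. The 6 fibroblast markers summed to 1.56 to 3.27 CPM under DMSO and 5.26 to 8.5 CPM under paclitaxel, with Lum at 5 counts or fewer. Of the leukocyte markers, Cd68, a gene many cells use for lysosomes, was at 6.19 to 8.46 CPM under DMSO and 21.4 to 39.2 CPM under paclitaxel, and Cd3e had at most 2 counts. Ptprc, a marker of all leukocytes, was at 0.311 to 1.05 CPM under DMSO and 0.593 to 1.54 CPM under paclitaxel, and it passed as higher with the drug in the EV-proficient libraries (edgeR adjusted p 0.00897) and not in the EV-deficient libraries (adjusted p 0.64). The 3 endothelial markers summed to 1.69 to 2.49 CPM and 2.55 to 4.26 CPM, in the same order. Mitochondrial genes took between 0.55% and 0.729% of the counts in the DMSO libraries and between 0.846% and 1.45% in the paclitaxel libraries. The part of these markers and of the mitochondrial share in the results below was not tested.

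The table holds a row that the authors added for a sequence named dngfr, and it grouped the libraries across the EV labels. Its mean was 8.99 ± 3.23 CPM under DMSO and 3.24 ± 0.68 CPM under paclitaxel in EV-proficient cells (SD, n = 3 each). In EV-deficient cells the order was turned round, with 2.15 ± 0.35 CPM under DMSO and 10.9 ± 1.4 CPM under paclitaxel. All 6 libraries of EV-proficient DMSO and EV-deficient paclitaxel lay above the other 6. The labels do not say which derivative carries this sequence. Whether EV labels were exchanged in 1 treatment cannot be told from the labels, and they are used as they stand. The directions between EV labels, the paclitaxel effects in each derivative and the difference of those effects all rest on them. An alternative with the EV labels of the paclitaxel groups exchanged was added after the data were seen. Its values are given beside many, not all, of the results that change with it. Under this exchange every difference between labels under paclitaxel keeps its size and turns its sign. Exchanging the DMSO groups instead would pair the same libraries. The derivatives' names would then be swapped, and the sign of each difference of effects turned. The paclitaxel effect is also given as an average over both labels, which does not depend on the EV label a library carries within its treatment.

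RefSeq promoters (GRCm38.p6, windows of 300 bases that include the annotated start) were on hand for 8 of the 10 genes, and the CArG box, searched by its name's standard form on both strands, occurred in 4 of them: Srf, Cnn2, Vcl and Myl9. Of all genes with such a promoter, 488 of 27025 (1.81%) hold a match in this window. These 4 promoters are shown because they match the element SRF binds, and the capitals mark the CArG boxes. Of their genes, 3 changed with paclitaxel, whereas Myl9 stayed near 0 counts. Tpm1 and Tpm2, without a match, also fell in the average over both labels, where 68.4% of all tested genes were called.
Srf, chr17:46556113-46556412, minus strand: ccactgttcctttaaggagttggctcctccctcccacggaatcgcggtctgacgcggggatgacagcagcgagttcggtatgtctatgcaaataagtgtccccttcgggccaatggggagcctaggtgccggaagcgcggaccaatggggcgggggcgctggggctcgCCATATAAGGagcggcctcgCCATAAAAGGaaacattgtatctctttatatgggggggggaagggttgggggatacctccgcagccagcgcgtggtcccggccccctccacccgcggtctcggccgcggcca
Cnn2, chr10:79988350-79988649, plus strand: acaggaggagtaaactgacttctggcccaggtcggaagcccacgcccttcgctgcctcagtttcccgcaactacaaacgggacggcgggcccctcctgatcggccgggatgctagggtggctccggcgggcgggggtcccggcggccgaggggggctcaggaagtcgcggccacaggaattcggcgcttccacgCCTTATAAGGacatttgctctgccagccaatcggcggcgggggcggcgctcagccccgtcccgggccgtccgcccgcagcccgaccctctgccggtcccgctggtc
Vcl, chr14:20929148-20929447, plus strand: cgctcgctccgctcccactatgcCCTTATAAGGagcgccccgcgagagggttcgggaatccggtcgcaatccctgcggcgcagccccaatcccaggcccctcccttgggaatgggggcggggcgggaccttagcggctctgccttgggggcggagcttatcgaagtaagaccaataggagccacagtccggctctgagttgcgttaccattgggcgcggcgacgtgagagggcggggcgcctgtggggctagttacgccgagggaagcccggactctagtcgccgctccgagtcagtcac
Myl9, chr2:156775214-156775513, plus strand: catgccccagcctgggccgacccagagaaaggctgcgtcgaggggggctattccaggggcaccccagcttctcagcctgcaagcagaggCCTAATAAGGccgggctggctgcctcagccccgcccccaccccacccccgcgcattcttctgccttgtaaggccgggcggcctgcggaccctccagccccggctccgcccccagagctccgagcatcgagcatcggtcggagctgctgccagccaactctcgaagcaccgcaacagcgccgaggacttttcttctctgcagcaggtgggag
The Srf promoter holds a pair of CArG boxes, CCATATAAGG from 82 to 73 bases and CCATAAAAGG from 62 to 53 bases before the start. Cnn2 and Vcl share the letters CCTTATAAGG, which lie from 56 to 47 bases before the start in Cnn2 and from 227 to 218 bases before it in Vcl. In Myl9 the match CCTAATAAGG lies from 161 to 152 bases before the start. A match is a description of letters and not a measured site. Acta2, Cnn1, Tpm1 and Tpm2 lack an exact match in this window, and near matches and other positions were not searched. The Acta2 window, for instance, holds ccctatatgg and ccttgtttgg, whose middle letters include a C or a G. Actg2 and Tagln had no entry.

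The 10 genes split into 5 that MOC2 cells express strongly and 5 at or near the floor of detection. Per length of their exons (RPKM, the CPM per kilobase of exon, with union exon lengths from GENCODE M21), Cnn2 and Tpm1 were highest, followed by Tpm2, Vcl and Srf. In EV-proficient DMSO libraries, Cnn2 was at 164 ± 7 RPKM, above Tpm1 at 102 ± 3 (SD, n = 3 each). In EV-deficient DMSO libraries the order was the other way round, with Tpm1 at 128 ± 3 and Cnn2 at 118 ± 1.5 RPKM. Under paclitaxel the libraries of both genes overlapped, at 107 ± 2 (Tpm1) and 101 ± 8 RPKM (Cnn2) in the EV-proficient libraries, and at 92.6 ± 2.2 (Tpm1) and 98.1 ± 4.8 RPKM (Cnn2) in the EV-deficient libraries. Tpm2 was between 33.9 (EV-deficient paclitaxel) and 71.9 RPKM (EV-deficient DMSO) in the group means, Vcl between 22.4 and 35.5 RPKM and Srf between 9.03 and 26.1 RPKM. Cnn1 reached a group mean of at most 0.228 RPKM, and the group means of Acta2, Actg2, Tagln and Myl9 were at most 0.131 RPKM, so the smooth muscle targets of SRF were at or near the floor.

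Averaged over both EV labels, a contrast added after the data were seen, paclitaxel lowered Srf, Cnn2, Tpm1, Tpm2 and Vcl. By the labels as they stand, Srf, Cnn2 and Vcl fell in both derivatives, and Tpm1 and Tpm2 passed in the libraries labelled EV-deficient. With the EV labels of the paclitaxel groups exchanged, these 5 genes fell in both derivatives, Tpm1 by 0.15 and 0.26 and Tpm2 by 0.59 and 0.62 on the log2 scale (edgeR, adjusted p at most 0.0195). In the EV-proficient libraries, 4 of the 7 tested genes fell and 0 rose (Srf, Cnn2, Vcl and Acta2), where 58.2% of all tested genes were called, 31.1% higher and 27.1% lower. In the EV-deficient libraries 5 fell and 0 rose (Srf, Cnn2, Tpm1, Tpm2 and Vcl), where 62.9% of all tested genes were called, 32.4% higher and 30.5% lower. The median log2 fold change of the 7 was -0.35 and -0.66, against 0.05 and 0.07 over all tested genes. In the average over both labels 6 fell and 0 rose, where 68.4% of all tested genes were called, 37.1% higher and 31.3% lower. These counts include Acta2, which entered the tests only through its DMSO libraries. Without it, 3 of 6 fell in the EV-proficient libraries (median -0.24), 5 of 6 in the EV-deficient libraries (median -0.56) and 5 of 6 in the average (median -0.50). Calls are from edgeR's quasi-likelihood test at an adjusted p of 0.05 across all tested genes. In bulk RNA, fewer cells of a kind and less RNA per cell cannot be told apart. Upper-quartile scaling, which moved the median paclitaxel effect of all genes in the EV-deficient libraries up by 0.18, left every direction called here in place and ended the call of Cnn2 there.

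**Figure D1:**
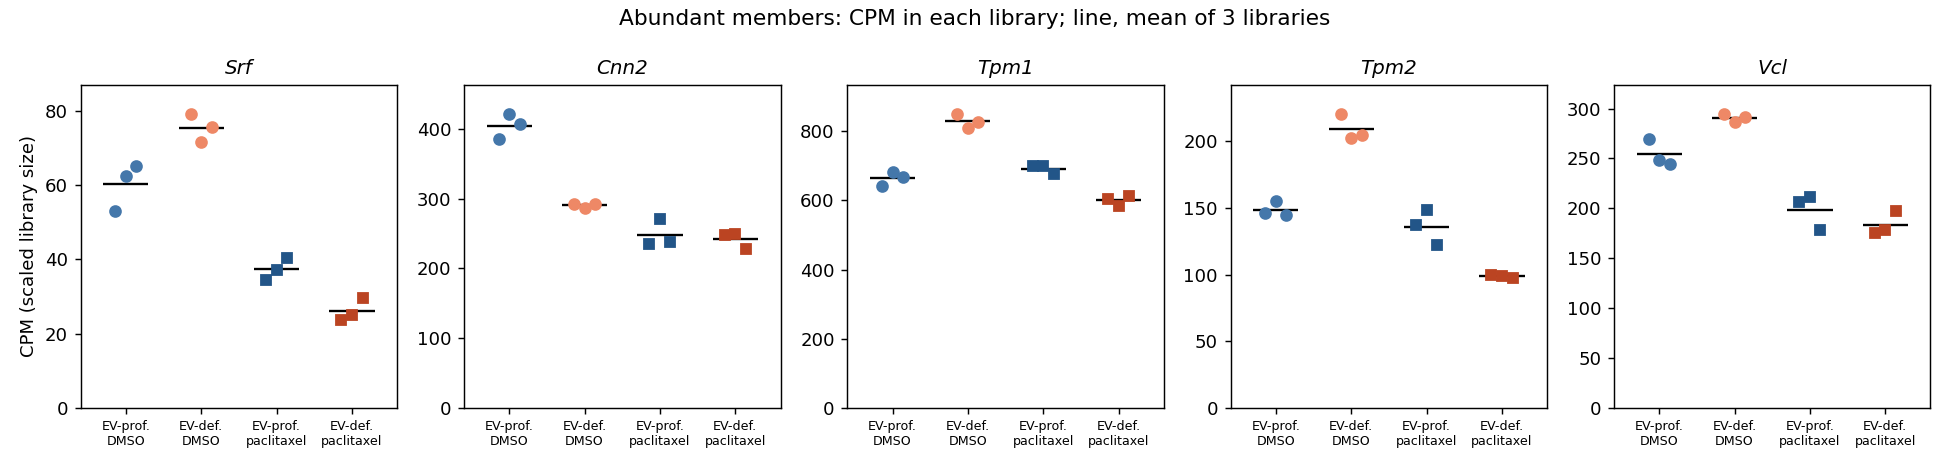
CPM (counts scaled to library size) of Srf, Cnn2, Tpm1, Tpm2 and Vcl in each of the 12 libraries, as points, with the mean of each group of 3 as a line; each vertical axis starts at 0. Srf lies between 53.1 and 79.0 CPM in the DMSO libraries and between 23.6 and 40.3 CPM in the paclitaxel libraries, while Tpm1 falls below its DMSO level only in the EV-deficient paclitaxel group.

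Srf (ENSMUSG00000015605, chr17:46548329-46556175 of GRCm38, minus strand), the transcription factor itself, was at 53.1, 62.5 and 65.1 CPM in the EV-proficient DMSO libraries and at 34.5, 37.2 and 40.3 CPM under paclitaxel. In the EV-deficient libraries it was at 79.0, 71.6 and 75.6 CPM without the drug and at 23.6, 25.1 and 29.7 CPM with it. All 6 paclitaxel libraries were below all 6 DMSO libraries, and no 2 of the 4 groups overlapped. The fall was 1.62-fold in the EV-proficient libraries (log2 fold change -0.70 ± 0.09 SE, adjusted p 9.7e-07) and 2.88-fold in the EV-deficient libraries (-1.53 ± 0.09 SE, adjusted p 5.19e-12). The difference of the paclitaxel effects was -0.83 ± 0.13 (log2, SE; adjusted p 1.81e-05), and 0.18 ± 0.13 with exchanged labels, which did not pass (adjusted p 0.4). Averaged over both labels, Srf fell 2.16-fold (-1.11 ± 0.06 SE, adjusted p 1.6e-12).

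Between EV labels as they stand, the order of Srf turned round with the treatment, and with the paclitaxel labels exchanged it would not. It was 1.25-fold higher in the EV-deficient than in the EV-proficient DMSO libraries (log2 0.33 ± 0.09 SE, adjusted p 0.00985) and 1.42-fold lower in the EV-deficient than in the EV-proficient paclitaxel libraries (-0.51 ± 0.09 SE, adjusted p 0.000157). The DMSO difference was not called without EV-proficient DMSO replicate 1 (0.25, adjusted p 0.0662) or without EV-deficient DMSO replicate 1 (0.29, adjusted p 0.055), and over all its alternatives the adjusted p lay between 6.37e-05 and 0.0662.

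Cnn2 (ENSMUSG00000004665, chr10:79988584-79996062, plus strand) encodes calponin 2, an actin-binding protein of non-muscle cells. It was at 386, 421 and 407 CPM in EV-proficient DMSO and at 293, 286 and 293 CPM in EV-deficient DMSO libraries. Under paclitaxel it was at 235, 270 and 238 CPM in the EV-proficient and at 247, 249 and 228 CPM in the EV-deficient libraries. The EV-proficient DMSO libraries stood above the other 9, and the paclitaxel groups overlapped. Cnn2 fell 1.63-fold in the EV-proficient libraries (log2 -0.71 ± 0.06 SE, adjusted p 3.83e-09) and 1.2-fold in the EV-deficient libraries (-0.27 ± 0.06 SE, adjusted p 0.00081; -0.08, adjusted p 0.231, with upper-quartile scaling). Its difference of paclitaxel effects, 0.44 ± 0.09 (log2, SE, edgeR adjusted p 0.000391), had the opposite sign to that of Srf. With the paclitaxel labels exchanged the difference also passed (0.52 ± 0.09 SE, adjusted p 0.000966), and its sign would turn with the DMSO labels exchanged instead. Between EV labels it was 1.39-fold lower in the EV-deficient libraries under DMSO (-0.48 ± 0.06 SE, adjusted p 5.98e-06), and under paclitaxel the difference did not pass (-0.04 ± 0.06 SE, adjusted p 0.666).

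Both tropomyosins, coiled-coil proteins that run along actin filaments, followed the order of Srf between the EV labels. Tpm1 (ENSMUSG00000032366, chr9:67022590-67049406, minus strand) was at 643, 683 and 669 CPM in EV-proficient DMSO and at 699.5, 699.7 and 677 CPM in EV-proficient paclitaxel libraries, and these groups overlapped. In the EV-deficient libraries it was at 849, 809 and 827 CPM without the drug and at 604, 585 and 612 CPM with it. The EV-deficient DMSO libraries were the highest and the EV-deficient paclitaxel libraries the lowest of all 12. Tpm1 fell 1.38-fold there (log2 -0.46 ± 0.05 SE, adjusted p 9.91e-08), its change in the EV-proficient libraries did not pass (0.06 ± 0.05 SE, adjusted p 0.361; 0.12, adjusted p 0.0392, with upper-quartile scaling), and the effects differed by -0.52 ± 0.07 (adjusted p 7.62e-06), or by -0.11 ± 0.07 with exchanged labels (adjusted p 0.374).

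Tpm2 (ENSMUSG00000028464, chr4:43514711-43523765, minus strand) was at 146, 155 and 144 CPM in EV-proficient DMSO and at 137, 148 and 122 CPM in EV-proficient paclitaxel libraries. In the EV-deficient libraries it was at 220, 203 and 205 CPM without the drug and at 99.5, 99.1 and 97.3 CPM with it. The EV-proficient groups overlapped, and the EV-deficient groups lay on either side of them. Tpm2 fell 2.12-fold in the EV-deficient libraries (log2 -1.09 ± 0.07 SE, adjusted p 7.74e-12). In the EV-proficient libraries its change did not pass (-0.13 ± 0.07 SE, adjusted p 0.111), although it did without EV-proficient paclitaxel replicate 2 (-0.25, adjusted p 0.0039) and without any 1 of the EV-deficient paclitaxel libraries (-0.17 each, adjusted p from 0.0306 to 0.0407). The difference of the paclitaxel effects, -0.96 ± 0.09 (log2, SE; adjusted p 4.11e-08), was -0.03 ± 0.09 with exchanged labels and did not pass (adjusted p 0.883). Between EV labels, Tpm2 was 1.41-fold higher in the EV-deficient libraries under DMSO (0.49 ± 0.07 SE, adjusted p 7.19e-06) and 1.38-fold lower there under paclitaxel (-0.47 ± 0.07 SE, adjusted p 1.12e-05). The corresponding values of Tpm1 were 1.25-fold higher (0.32 ± 0.05 SE, adjusted p 0.000104) and 1.15-fold lower (-0.21 ± 0.05 SE, adjusted p 0.00379), the latter not called with upper-quartile scaling (-0.11, adjusted p 0.0779) or with only the paclitaxel groups in the fit (-0.18, adjusted p 0.054).

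Vcl (ENSMUSG00000021823, chr14:20929398-21033676, plus strand) encodes vinculin, which links actin filaments to focal adhesions and cell junctions. It was at 270, 249 and 244 CPM in EV-proficient DMSO and at 294, 286 and 291 CPM in EV-deficient DMSO libraries. Under paclitaxel it was at 206, 212 and 179 CPM in the EV-proficient and at 175, 178 and 197 CPM in the EV-deficient libraries. All 6 paclitaxel libraries were below all 6 DMSO libraries, and the paclitaxel groups overlapped. Vcl fell 1.28-fold in the EV-proficient libraries (log2 -0.35 ± 0.07 SE, adjusted p 0.00013) and 1.58-fold in the EV-deficient libraries (-0.66 ± 0.07 SE, adjusted p 2.33e-08). The effects differed by -0.31 ± 0.10 (adjusted p 0.0133), or by -0.08 ± 0.10 with exchanged labels (adjusted p 0.67). Of 19 other alternatives, 5 did not call it: upper-quartile scaling (-0.18, adjusted p 0.132) and leaving out EV-proficient paclitaxel replicate 1 (-0.25, adjusted p 0.0848) or 2 (-0.22, adjusted p 0.0971) or EV-deficient paclitaxel replicate 1 (-0.24, adjusted p 0.0827) or 2 (-0.24, adjusted p 0.0641). Its higher level in the EV-deficient DMSO libraries (0.19 ± 0.07 SE, adjusted p 0.0443) was lost in 14 of 20 alternatives, including 11 of the 12 that left out 1 library, with adjusted p-values from 0.00671 to 0.157. Under paclitaxel the difference between labels did not pass (-0.12 ± 0.07 SE, adjusted p 0.193), although it was called without EV-proficient paclitaxel replicate 3 (-0.20, adjusted p 0.0292). Exons of Vcl share 2090 bases with exons of Ap3m1 on the other strand, a gene at between 80.5 and 103 CPM, and whether counting used strand was not given in the sources used here, so a part of the Vcl counts could belong to that gene.

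**Figure D2:**
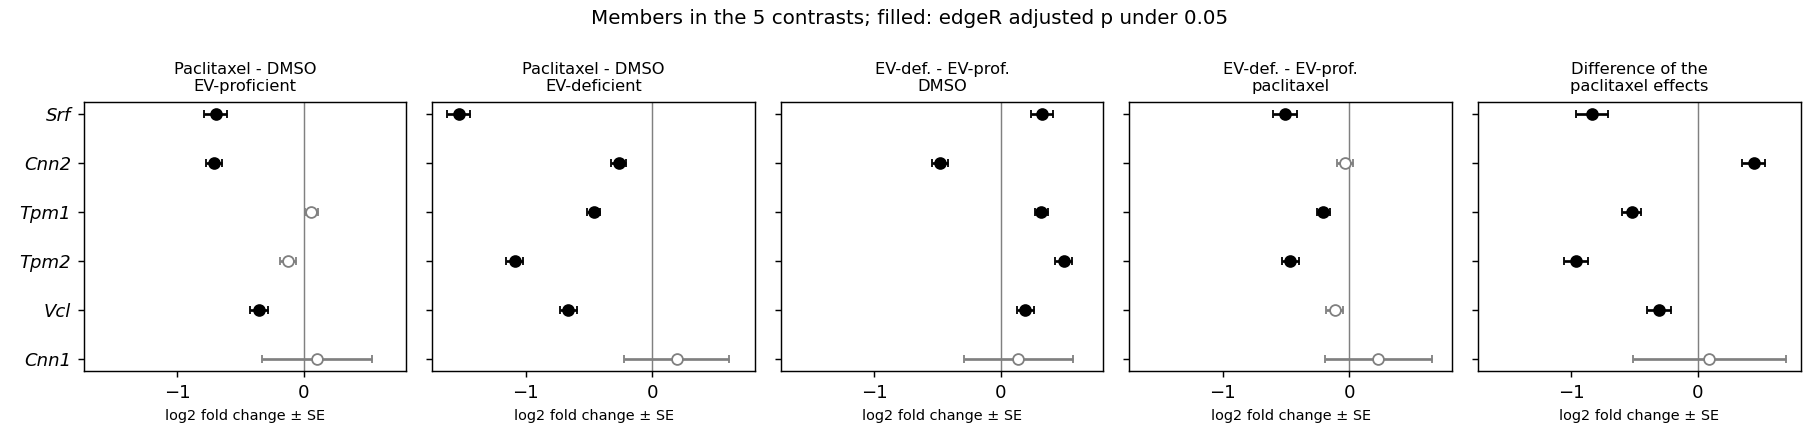
Log2 fold changes with their standard errors (bars) of 6 tested members in the 5 contrasts, from the edgeR fit to all 12 libraries with EV labels as they stand; filled points passed an adjusted p of 0.05. Cnn2 stands to the right of 0 in the difference of the paclitaxel effects (0.44), where Srf, Tpm1, Tpm2 and Vcl stand to the left (-0.96 to -0.31); Acta2, with at most 12 counts in a library, is not drawn.

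The smooth muscle genes were close to the floor of 3 counts per library, which corresponds to between 0.0492 and 0.121 CPM. Acta2 (smooth muscle alpha-actin, ENSMUSG00000035783) had 4, 12 and 11 counts in EV-proficient DMSO, 4, 11 and 3 in EV-deficient DMSO, 1, 1 and 0 in EV-proficient paclitaxel and 1, 4 and 0 in EV-deficient paclitaxel libraries. The EV-proficient groups did not overlap, and the EV-deficient groups did. Summed over a group and scaled, the ratio of paclitaxel to DMSO was 0.0656 (95% exact Poisson interval 0.00755 to 0.261, 2 against 27 counts) in the EV-proficient and 0.258 (0.075 to 0.722, 5 against 18 counts) in the EV-deficient libraries, intervals that cover counting error only. Acta2 entered the tests only through its DMSO libraries, so its call in the EV-proficient libraries (adjusted p 0.00723; from 0.00552 to 0.0336 over its alternatives) is no support for the group. It did not pass in the EV-deficient libraries (adjusted p 0.121), except without EV-deficient paclitaxel replicate 2 (adjusted p 0.0332) and with exchanged labels (adjusted p 0.0466).

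For the other low members no contrast passed in the fit to all 12 libraries. Cnn1 (calponin 1, the smooth muscle form, ENSMUSG00000001349) had between 10 and 44 counts in every library, and its paclitaxel to DMSO ratios were 1.1 (0.767 to 1.58) and 1.12 (0.829 to 1.52), neither of which passed (adjusted p 0.859 and 0.707). Tagln (transgelin, ENSMUSG00000032085) had between 0 and 12 counts, Myl9 (a regulatory myosin light chain, ENSMUSG00000067818) between 0 and 11, and Actg2 (enteric smooth muscle actin, ENSMUSG00000059430) between 0 and 26. The 26 counts of Actg2 came from EV-deficient paclitaxel replicate 1, whereas replicates 2 and 3 of that group had 0 and 5. By counting error alone, summed Actg2 counts were higher under paclitaxel in the EV-proficient (11 against 2, ratio 4.87, interval 1.06 to 45.2) and EV-deficient libraries (31 against 6, ratio 4.81, interval 1.98 to 14.1), and those of Myl9 lower in the EV-deficient libraries (8 against 22, ratio 0.338, interval 0.13 to 0.789), but in raw counts the libraries of the compared groups overlapped or met. These 3 genes were not tested in the fit to all 12 libraries. Without the low-count filter none of their 5 contrasts passed (edgeR's lowest adjusted p was 0.156, and 0 of the 15 unadjusted p-values were under 0.05). In fits without 1 library, up to 7 members were called for paclitaxel in the EV-deficient libraries and in the average. Cnn1 was called in none of them, so counts of 7 take in at least 1 of these 3 genes. Of the 50-base stretches of their annotated transcripts, none in Actg2, Tagln or Myl9 and 0.326% in Acta2 occur exactly in another gene, so exact sharing with the abundant actins was small at that length. Exons of Tagln share 1241 bases with the antisense gene Gm48529 and 108 with Pcsk7.

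**Figure D3:**
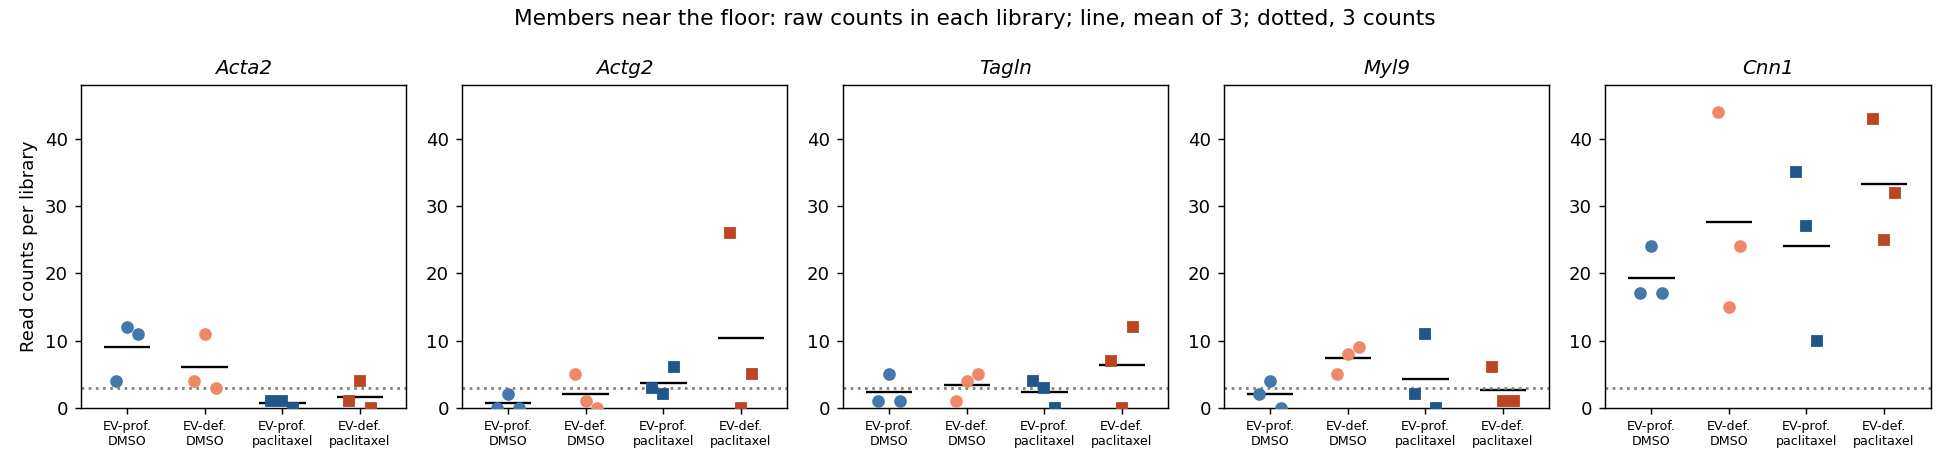
Raw read counts of Acta2, Actg2, Tagln, Myl9 and Cnn1 in each of the 12 libraries (points), with group means as lines and the floor of 3 counts dotted. Counts of the first 4 genes stay at or below 12 except for 1 Actg2 library at 26, and Cnn1 lies between 10 and 44 counts in all groups.

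The study compared EV labels to ask about vesicle release, but each label is 1 derivative and the comparison is between those derivatives as labelled. Under DMSO, 4 of the 7 tested members were higher (Srf, Tpm1, Tpm2 and Vcl) and 1 lower (Cnn2) in the libraries labelled EV-deficient, where 23% of all tested genes were called. Leaving out any 1 library gave 3 or 4 members called in place of 5, with 3 without EV-deficient DMSO replicate 1. Under paclitaxel 3 members were lower (Srf, Tpm1 and Tpm2) and 0 higher, where 37.8% of all tested genes were called. With the paclitaxel labels exchanged, these 3 would be higher and 0 lower. Opposite signs of the label difference without and with the drug were seen for 5 of the 7 tested members and 67.1% of all tested genes, and with exchanged labels for 2 of the 7 and 33%. The difference of the paclitaxel effects passed for 5 members, 4 negative and 1 positive, where 40.7% of all tested genes were called. With the EV labels of the paclitaxel groups exchanged, 1 member passed (Cnn2), where 9.6% of all tested genes were called. The libraries of the compared groups did not overlap for 4 members (paclitaxel, EV-proficient), 5 (paclitaxel, EV-deficient), 5 (EV labels, DMSO) and 3 (EV labels, paclitaxel) of the 7, against 62.3%, 68.7%, 43.3% and 44.1% of all tested genes.

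The wider pathway was taken from 4 lists of 51 genes and is given by the EV labels as they stand, with the values under exchanged paclitaxel labels beside the differences of effects. Their counts are read against all tested genes, of which 31.1% rose and 27.1% fell with paclitaxel in the EV-proficient and 32.4% rose and 30.5% fell in the EV-deficient libraries. Among the cofactors of SRF, Mrtfa fell and the ternary complex factor genes Elk3 and Elk4 rose in both derivatives, with labels as they stand or exchanged. Elk1, the other factor of that family, did not pass in either derivative (0.10 ± 0.08 and -0.02 ± 0.08 SE, edgeR adjusted p 0.321 and 0.822). Of 8 cofactors, all tested, 3 rose and 2 fell with paclitaxel in the EV-proficient libraries, and 3 rose and 1 fell in the EV-deficient libraries. These 5 and 4 called genes of 8 are near the shares of all tested genes called, 58.2% and 62.9%. Scai, which encodes a protein that represses MRTF activity, rose 1.93-fold (log2 0.95 ± 0.12 SE, adjusted p 3.64e-07) and 1.74-fold (0.80 ± 0.11 SE, adjusted p 2.09e-06). Elk4 rose by 0.46 ± 0.10 and 0.77 ± 0.09 and Elk3 by 0.46 ± 0.06 and 0.33 ± 0.06 (log2, SE), with the largest adjusted p at 0.000309. Mrtfb fell 1.44-fold in the EV-proficient libraries (-0.53 ± 0.07 SE, adjusted p 1.9e-06), and did not pass in the EV-deficient libraries (0.11 ± 0.07 SE, adjusted p 0.191). Mrtfa fell 1.28-fold in the EV-proficient (-0.36 ± 0.08 SE, adjusted p 0.000443) and 1.56-fold in the EV-deficient libraries (-0.64 ± 0.08 SE, adjusted p 2.49e-07). The difference of the paclitaxel effects passed for Mrtfb (0.63 ± 0.10 SE, adjusted p 2.94e-05) and, close to the threshold, for Mrtfa (-0.28 ± 0.11 SE, adjusted p 0.0448), whose call was lost in 14 other alternatives, 10 of them leaving out 1 library. With exchanged labels neither passed, at -0.01 ± 0.10 for Mrtfb (adjusted p 0.979) and 0.17 ± 0.11 for Mrtfa (adjusted p 0.35), and Mrtfb fell by 0.21 in each derivative (adjusted p at most 0.0161).

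The genes of both cytoplasmic actins and of cofilin fell with the drug in both derivatives. Of the 20 tested genes of 21 in the list of actin isoforms, monomer binders and actomyosin signalling, 12 fell in each derivative, with 2 rising in the EV-proficient and 5 in the EV-deficient libraries, against 58.2% and 62.9% of all tested genes called in either direction, and the median log2 fold changes were -0.31 and -0.19. Actb, cytoplasmic beta-actin, went from 5955 ± 411 to 2115 ± 160 CPM in the EV-proficient libraries (SD, n = 3 each; 2.82-fold lower, log2 -1.49 ± 0.07 SE, adjusted p 1.21e-13), and from 4094 ± 120 to 2579 ± 124 CPM in the EV-deficient libraries (1.59-fold lower, adjusted p 9.24e-09). Actg1, cytoplasmic gamma-actin, fell 2.74-fold in the EV-proficient and 2.72-fold in the EV-deficient libraries (adjusted p 1.19e-13 and 6.14e-14). Cfl1, encoding the filament-severing protein cofilin, fell 2.04-fold and 1.75-fold (adjusted p 2.64e-11 and 6.2e-10). Tmsb4x (thymosin beta-4, which sequesters actin monomers) and Rhob (a small GTPase) moved differently in the derivatives as labelled. Tmsb4x rose 1.87-fold in the EV-deficient libraries (adjusted p 4.32e-11), from 331 ± 3 to 619 ± 40 CPM, but fell from 547 ± 15 to 362 ± 24 CPM in the EV-proficient libraries (adjusted p 3.54e-08), a difference of effects of 1.498 ± 0.087 (log2, SE; adjusted p 1.21e-11). Rhob fell 2.71-fold in the EV-deficient libraries (adjusted p 1.34e-11), from 187 ± 17 to 68.9 ± 1.1 CPM, against 120 ± 18 and 137 ± 11 CPM in the EV-proficient libraries (SD, n = 3 each; adjusted p 0.0898), a difference of -1.62 ± 0.13 (adjusted p 1.59e-09). With exchanged labels the difference did not pass for Tmsb4x (-0.05 ± 0.09 SE, adjusted p 0.751) or Rhob (0.35 ± 0.13 SE, adjusted p 0.0847), and 3 of the 20 genes passed in place of 9.

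Among 16 other MRTF-SRF targets, all tested, 4 rose and 9 fell in the EV-proficient libraries, and 6 rose and 8 fell in the EV-deficient libraries, against 58.2% and 62.9% of all tested genes called. Ccn1, a matricellular protein gene, fell 2.09-fold and 2.11-fold (adjusted p 1.11e-12 and 4.71e-13), and Flna, the actin crosslinker filamin A, fell 2.05-fold and 2.14-fold (adjusted p 2.44e-10 and 6.1e-11). Fhl1, encoding a LIM domain protein, rose 1.74-fold in the EV-proficient libraries (adjusted p 1.71e-07) and fell 1.35-fold in the EV-deficient libraries (adjusted p 0.000222). Zyx, encoding zyxin of focal adhesions, fell 2.54-fold in the EV-deficient libraries (adjusted p 2.05e-13), from 225 ± 14 to 88.4 ± 5.1 CPM, and 1.48-fold, from 191 ± 10 to 129 ± 3 CPM, in the EV-proficient libraries (SD, n = 3 each; adjusted p 1.23e-07). The difference of the paclitaxel effects passed for 10 of the 16, 5 positive and 5 negative, against 40.7% of all tested genes, with Fhl1 (-1.24 ± 0.13 SE, adjusted p 1.09e-07), Smtn (-1.002 ± 0.111 SE, adjusted p 2.7e-07) and Tpm4, a further tropomyosin gene (0.94 ± 0.09 SE, adjusted p 3.43e-08), among them. With exchanged labels 5 of the 16 passed. Fhl1 was then at -0.42 ± 0.13 (adjusted p 0.0431), Smtn turned to 0.38 ± 0.11 (adjusted p 0.0325) and Tpm4 did not pass (0.25 ± 0.09 SE, adjusted p 0.0868). The difference for Zyx went from -0.78 to 0.31 ± 0.09 SE (edgeR adjusted p 0.0315), with falls of 2.16-fold in the EV-proficient and 1.74-fold in the EV-deficient libraries. Fhl1 then did not pass in the EV-deficient libraries (-0.026, adjusted p 0.821).

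Of 6 immediate early genes, which answer to the ternary complex factors, 5 rose and 0 fell in the EV-proficient libraries, where 31.1% of all tested genes rose, and Egr2 did not pass (adjusted p 0.0618). In the EV-deficient libraries 2 rose and 1 fell, where 62.9% of all tested genes were called. Fos rose 3.03-fold and 2.23-fold (log2 1.60 ± 0.18 and 1.16 ± 0.17 SE, adjusted p 9.13e-08 and 4.87e-06) and Egr1 2.69-fold and 1.81-fold (adjusted p 2.27e-11 and 3.03e-08). Ier2 rose 1.65-fold in the EV-proficient libraries (adjusted p 1.07e-05) and fell 1.25-fold in the EV-deficient libraries (-0.32 ± 0.11 SE, adjusted p 0.0164), a fall that was not called with upper-quartile scaling (-0.14, adjusted p 0.311), with the 1 CPM filter (-0.26, adjusted p 0.0549), without EV-deficient DMSO replicate 3 (-0.24, adjusted p 0.0959) or without EV-deficient paclitaxel replicate 1 (-0.29, adjusted p 0.0696). The difference of the paclitaxel effects had a negative estimate for all 6 genes and passed for 3 of them (Fosb, Egr1 and Ier2), where 40.7% of all tested genes were called and 23.8% were called negative. With exchanged labels the estimate was positive for 5 of the 6 and passed for Egr1 (0.53 ± 0.13 SE, adjusted p 0.0108), while Fosb (0.13, adjusted p 0.766) and Ier2 (0.46, adjusted p 0.0708) did not pass, and 3 of the 6 rose in the EV-proficient and 5 in the EV-deficient libraries. In the EV-deficient libraries 5 of the 6 were called when EV-deficient paclitaxel replicate 2 was left out.

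**Figure D4:**
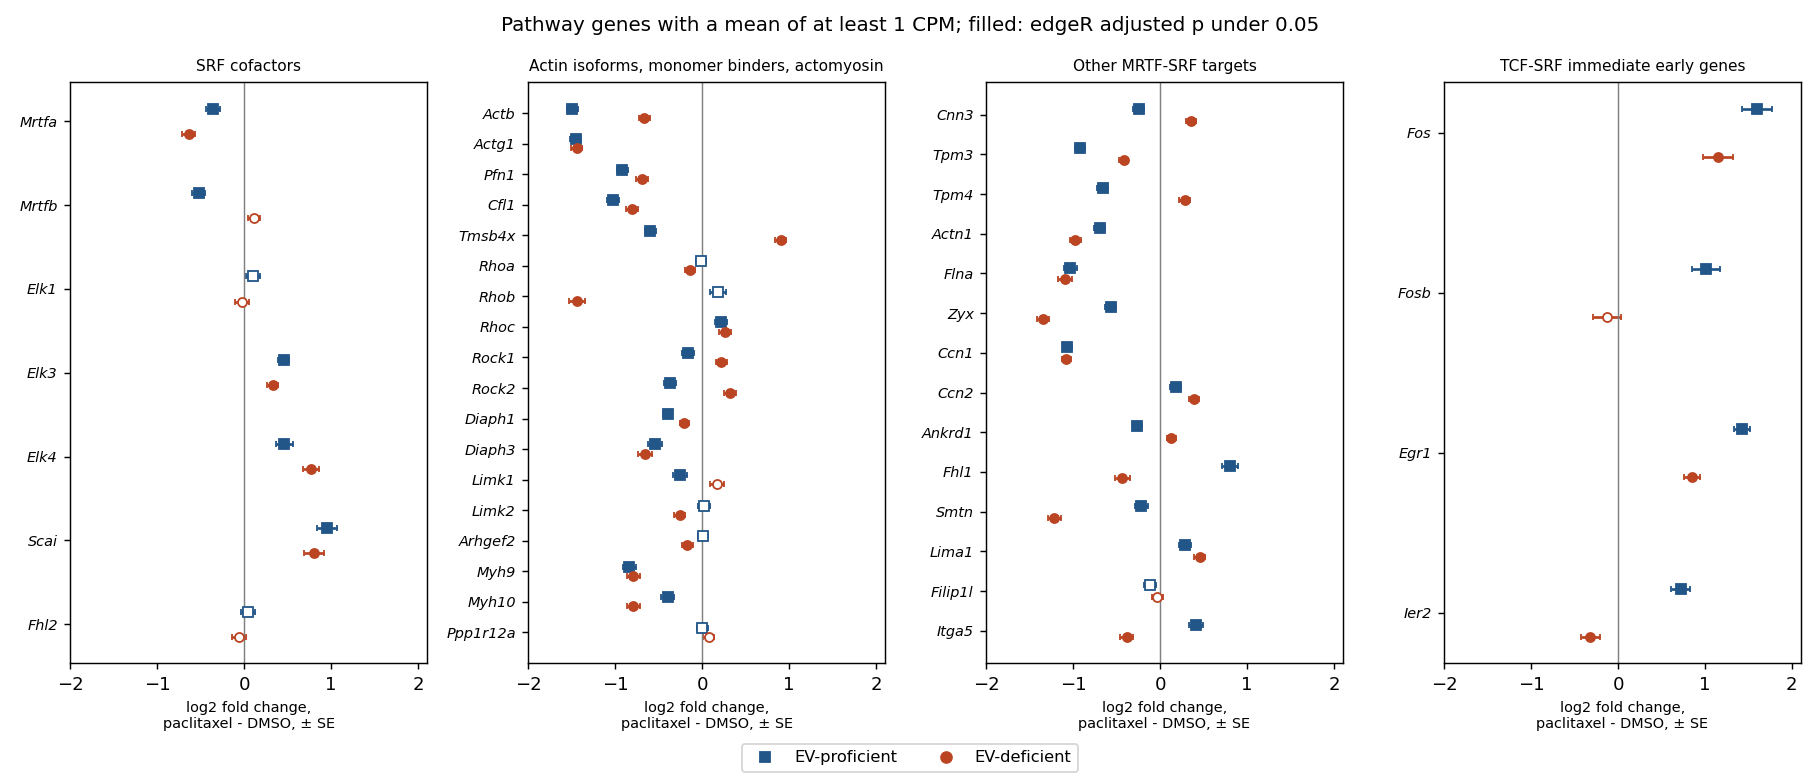
Log2 fold change of paclitaxel against DMSO (± SE) for the genes of the 4 pathway lists with a mean of at least 1 CPM, in EV-proficient (squares) and EV-deficient libraries (circles); filled symbols passed an adjusted p of 0.05. Actb and Actg1 lie to the left of 0 in both derivatives, Fos and Egr1 to the right, and Tmsb4x on opposite sides.

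CArG boxes in the 300-base promoter window were found in 1 of 7 cofactor genes with a promoter, 3 of 18 in the actin and actomyosin list, 3 of 14 other MRTF-SRF targets and 1 of 3 immediate early genes. The genes whose log2 CPM followed that of Srf most closely over the 12 libraries were Ino80e (Pearson r 0.993), Ppp1r8 (0.993) and Ttll12 (0.991), out of 9884 genes with a mean of at least 5 CPM and a proper symbol. For Vcl they were Supt6 (0.99), Chd4 (0.988) and Tsc2 (0.988). These values are descriptions over libraries that share their scaling and fall into 4 groups. No such ranking is given for Acta2 and Tagln, whose counts are too low to rank.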

How the data were processed

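The values are raw counts of reads by gene that the authors deposited as 1 table for 12 stranded libraries of polyadenylated RNA. The submitters' processing notes name STAR 2.5.0a and GRCm38, and the counting program, its use of strand and the annotation release were not given in the sources used here. Columns were matched to samples by the sample descriptions, with 0 columns of other samples. Of 55423 rows, 2 added by the authors (gfp, with 0 counts, and dngfr) were left out of library sizes and tests.

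The tests used edgeR 4.0.16 under R 4.3.3 (filterByExpr with a minimum count of 10, TMM factors from 0.89 to 1.15, 1 quasi-likelihood fit with a mean per group to all 12 libraries, Benjamini-Hochberg adjustment over 18108 genes, threshold 0.05). Each SE was taken as the log2 fold change over the root of its F statistic. CPM use the scaled library sizes. Replicates differed by more than sampling noise (chi-square per degree of freedom from 4.2 to 31.1 over 12 pairs). On simulated counts for the paclitaxel comparison in EV-proficient cells, edgeR recovered 67.8% of 199 changed genes among 17503, with 6 false calls. Those counts held few changed genes, balanced up and down and in 1 group only. In the data 58.2% of tested genes were called in this comparison, so these rates need not carry over.

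The members and lists were chosen with earlier results of these data known. All 10 members are named. The summed level of the leukocyte markers is not reported here. From each pathway list at most 4 genes per contrast are named, the called genes with the largest changes and a mean of at least 5 CPM. The genes closest to a member are the 3 with the highest Pearson correlation. The alternatives tried were DESeq2 1.42.0, limma-voom (limma 3.58.1), median-of-ratios or upper-quartile factors in edgeR, a filter of 1 CPM in 3 libraries or none, a term for the replicate number, exchanged EV labels in the paclitaxel groups, counts without Acta2, a fit to the compared groups alone, and fits without each library in turn.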

Additional observations from a re-analysis of the deposited data

Results flagged for a closer look

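The paclitaxel effect differed between the EV labels, by the test of that difference, for 5 members: Srf (-0.83, log2), Tpm1 (-0.52), Tpm2 (-0.96) and Vcl (-0.31) responded more negatively in the libraries labelled EV-deficient, and Cnn2 (0.44) less negatively. These differences rest on the EV labels in both treatments: with the labels of the paclitaxel groups exchanged they were 0.18, -0.11, -0.03 and -0.08 for the first 4, none past the threshold, and 0.52 for Cnn2, which passed. Among the pathway genes named by rule, with the labels as they stand, it differed for Mrtfb (0.63), Mrtfa (-0.28), Rhob (-1.62), Tmsb4x (1.498), Actb (0.83), Rock2 (0.69), Fhl1 (-1.24), Smtn (-1.002), Tpm4 (0.94), Itga5 (-0.80), Fosb (-1.14), Ier2 (-1.04) and Egr1 (-0.58). With exchanged labels, of these 13 only Fhl1 (-0.42), Smtn (0.38) and Egr1 (0.53) passed, the last pair with the other sign. These signs would turn with the DMSO labels exchanged instead. The dngfr row, used in no comparison, had counts in all 12 libraries, with means of 8.99 CPM in EV-proficient DMSO, 2.15 in EV-deficient DMSO, 3.24 in EV-proficient paclitaxel and 10.9 CPM in EV-deficient paclitaxel libraries.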

How the results depend on the processing

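Of 811 values of the 7 tested members under the alternatives, over 42 combinations of member and contrast, 780 kept the side of the threshold and 0 reversed a called direction, while 24 lost and 7 gained a call. These exclude the exchange of EV labels between the paclitaxel groups, added after the data were seen, under which the difference of effects reversed for Srf (0.18) and the paclitaxel effect in the EV-proficient libraries for Tpm1 (-0.15), and 1 member in place of 5 passed in the difference of effects. With the DMSO labels exchanged instead, each difference of effects would have the other sign, so which ones reverse depends on that choice. Among pathway genes it reversed the difference of effects of Mrtfa (0.17), Mrtfb (-0.0068), Tmsb4x (-0.0532), Rhob (0.35), Rock2 (-0.0391), Smtn (0.38), Fosb (0.13), Egr1 (0.53) and Ier2 (0.46), and the paclitaxel effect of Ier2 in EV-proficient (-0.0291) and EV-deficient libraries (0.43). That exchange took the genes called in the difference of effects from 7370 to 1739. With 1 library left out, the members called numbered 4 to 5 (paclitaxel, EV-proficient), 5 to 7 (paclitaxel, EV-deficient), 3 to 4 (EV labels, DMSO), 3 to 4 (EV labels, paclitaxel), 4 to 5 (difference of effects) and 6 to 7 (average), and the 3 under DMSO came without EV-deficient DMSO replicate 1. The counts of 7 take in at least 1 of Actg2, Tagln and Myl9, which are not among the 7 tested members. Upper-quartile scaling moved the median difference of effects of all genes by 0.12 and the share of positive calls there from 41.4% to 53.9%, the share of higher calls under paclitaxel between EV labels from 42.4% to 58.2%, and that of paclitaxel in the EV-deficient libraries from 51.5% to 63.4%. Called cofactors between EV labels under DMSO went from 1 to 3 with only those groups, and in the difference of effects from 2 to 1 in 8 fits without 1 library. Called immediate early genes between EV labels under DMSO went from 1 to 0 or 2.

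The same replicate numbers in all groups did not pair the libraries: deviations from group means correlated between -0.0812 and 0.097 for the 18 same-numbered pairs and between -0.111 and 0.0903 for the others, and 16 of 36 comparisons were closest to their own number. With the replicate block, the members called were 4, 5, 5, 3 and 5 in the 5 contrasts, as without it. Acta2, Actg2, Tagln and Myl9 were at or under 3 counts in several libraries each, so they are described mainly by their counts. The edgeR calls given for Acta2 are no support for the group.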
